A study of Mus musculus with 4 samples.

Results

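The lysosome and proton pump genes are 43 genes, chosen by symbol as a list from the 27998 genes in the deposited tables. All 43 were found. The list holds 6 lysosomal membrane proteins, 8 cysteine proteases, 3 other proteases, 10 glycosidases and other hydrolases, 4 genes of lipid handling, 2 regulators, and 4 membrane-sector and 6 cytosolic-sector subunits of the proton pump.

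The study asked how leukocytes of the nose respond in a mouse model of allergic rhinitis, and had sequenced single CD45+ cells (leukocytes carry CD45 on their surface) from the nasal mucosa of C57BL/6 mice aged 8 weeks. There were 4 groups with 1 library each: Vehicle, Vehicle-OVA, Ribavirin and Ribavirin-OVA, where OVA is ovalbumin, the allergen of the model, and ribavirin is an antiviral drug. The labels do not give the number of mice in a library, and they name magnetic beads for the isolation of CD45+ cells where the series text names flow sorting. With 1 library per group there were no replicates, so no difference was tested, and the 95% intervals given here cover counting error only.

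The lysosome is the acidic compartment in which cells break down material that they engulf or recycle. The vacuolar proton pump (V-ATPase) acidifies it: the cytosolic sector splits ATP, and the membrane sector carries protons into the lumen, where the proteases and hydrolases work best at low pH. Macrophages, which engulf dying cells and debris, are known for a high content of lysosomes, and the pump and the protease cathepsin K are also used by osteoclasts to resorb bone.

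Many lysosomal genes carry an E-box, the 6 letters CACGTG, near their start site, and its extension TCACGTGA, which contains the first motif, is the site through which the transcription factor Tfeb is known to act. Promoter windows (250 bases before to 50 after a start site, RefSeq, GRCm38.p6) were found for 36 of the 43 members, in 45 windows. The windows are written along the gene's own strand, and both motifs read the same on both strands. CACGTG was present for 13 of these 36 members (36.1%), beside 2187 of all 27025 genes with a window (8.09%), and TCACGTGA for 6 (16.7%), beside 1.12% of all genes. Among the 14 members with a window that were over 1.5-fold higher in macrophages in both OVA pairs (OVA against no OVA, under vehicle and under ribavirin), 6 held CACGTG and 4 held TCACGTGA, and among the 22 other members the counts were 7 and 2. A match is a description of letters and no evidence of binding. Stretches of 7 windows are shown, of which 6 are from the members higher in both OVA pairs that hold a motif (in capitals). The 7 other members with CACGTG are not shown. The stretch of Ctsk, whose ratio was among the largest, is shown because neither motif is in it. These 7 stretches were thus chosen by OVA ratio and are no sample of the members. They lie at chr8:105566055-105566118 (minus strand), chr16:44139334-44139441 (minus strand), chr8:3500423-3500528 (plus strand), chrX:134601143-134601250 (minus strand), chr12:102439086-102439191 (minus strand), chr13:64370701-64370770 (minus strand) and chr3:95499110-95499219 (plus strand), in the order printed.
Atp6v0d1: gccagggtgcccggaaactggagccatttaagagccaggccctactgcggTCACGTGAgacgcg
Atp6v1a: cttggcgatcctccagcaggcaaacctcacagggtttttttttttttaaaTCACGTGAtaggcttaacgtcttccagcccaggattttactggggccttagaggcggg
Mcoln1: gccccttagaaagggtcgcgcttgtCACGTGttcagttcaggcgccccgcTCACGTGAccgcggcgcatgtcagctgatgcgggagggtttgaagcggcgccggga
Gla: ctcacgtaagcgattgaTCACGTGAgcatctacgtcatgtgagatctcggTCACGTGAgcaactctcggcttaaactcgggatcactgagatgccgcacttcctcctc
Lgmn: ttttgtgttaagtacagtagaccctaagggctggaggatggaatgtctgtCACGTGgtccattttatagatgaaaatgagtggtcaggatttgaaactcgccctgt
Ctsl: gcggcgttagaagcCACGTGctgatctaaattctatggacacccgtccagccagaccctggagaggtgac
Ctsk: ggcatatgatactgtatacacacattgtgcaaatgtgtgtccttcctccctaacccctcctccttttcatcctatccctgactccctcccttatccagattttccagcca
In Atp6v0d1 the motif lies across the start site. The nearest copy begins 46 bases before it in Mcoln1, 49 in Lgmn, 132 in Atp6v1a, 195 in Gla and 236 in Ctsl. Gla and Mcoln1 each have 2 copies of CACGTG. Ctsb, Ctsh, Asah1, Atp6v0d2, Atp6v1b2, Atp6v1c1 and Atp6v1h had no entry.

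Cells were put into classes by the UMIs (unique molecular identifiers, 1 per captured transcript) of marker genes, none of which is a member. The classes were named from these markers, so each is a marker-defined or "-like" class, written below as the macrophage class and so on. The macrophage class (C1qa, C1qb, C1qc, Ms4a7, Mrc1, Pf4, Ccl24, Arg1) held 2871 cells in Vehicle, 1556 in Vehicle-OVA, 2130 in Ribavirin and 1188 in Ribavirin-OVA, with a median of 9293 to 10551 UMIs per cell. All 8 of its markers were present in each library. Ccl24 and Arg1 also mark a state, described below, that was found almost only with OVA, so OVA may bear on which cells joined the class. The part of this in the OVA ratios was not tested. Of these cells 289, 191, 191 and 131 lay near the limit to another class. A median macrophage held 0 or 1 UMI of every other class's markers, except those of neutrophils in Vehicle-OVA (4 UMIs) and Ribavirin-OVA (2 UMIs). The neutrophil markers summed to 244, 594, 276 and 298 CPM (UMIs of a gene per 1000000 UMIs of the class) in the order Vehicle, Vehicle-OVA, Ribavirin and Ribavirin-OVA, which is the order of all values given, beside 17171, 18854, 15582 and 17652 CPM for the macrophages' own markers. Epithelial markers in macrophages summed to 22.4, 150.4, 50.4 and 140.1 CPM, higher in both OVA libraries. Their part in the results was not tested. Between libraries 404, 350, 325 and 196 cell barcodes were shared with another library.

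The members were highest in macrophages. Their UMIs summed to 23941, 37649, 22609 and 44281 CPM there, that is 2.39%, 3.76%, 2.26% and 4.43% of all UMIs of the class. Both OVA libraries were above both libraries without OVA. Plasmacytoid dendritic cells, which sense viral nucleic acids in endosomes, came next with 11986, 19031, 11196 and 19097 CPM, followed by monocytes with 12569, 18673, 12469 and 17121 CPM, which were the higher of these 2 classes without OVA. Neutrophils held 6870, 9810, 5951 and 9419 CPM, and T cells 2283, 3278, 2271 and 3099 CPM.

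**Figure D1:**
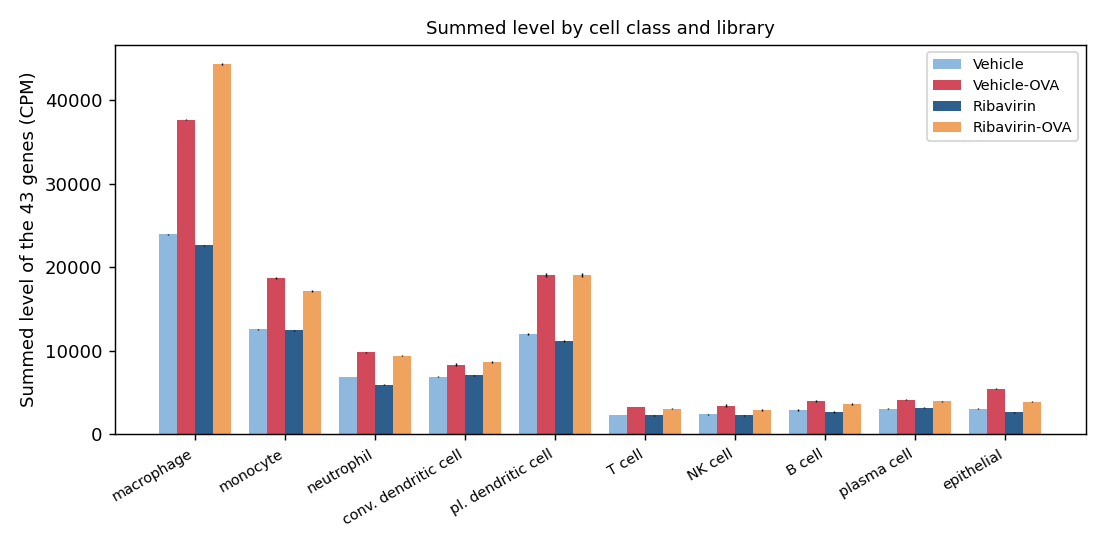
Summed level of the 43 genes (CPM, linear axis from 0) in 10 cell classes, 1 bar per library, with 95% counting intervals. The macrophage bars reach from 22609 CPM in Ribavirin to 44281 CPM in Ribavirin-OVA, and the OVA bars are the higher ones in the macrophage, monocyte, neutrophil, plasmacytoid dendritic cell and T cell classes.

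Of the 43 members, 19 had their highest level of 10 classes in the macrophage class in all 4 libraries, beside 2.84% of all genes. They were the membrane proteins Lamp1, Cd63, Cd68 and Scarb2, the proteases Ctsb, Ctsc, Ctss, Ctsz, Lgmn, Ctsa, Ctsd and Tpp1, the hydrolases Hexa, Gaa, Man2b1, Acp2 and Acp5, and the lipid hydrolases Lipa and Asah1. None was a subunit of the proton pump. Macrophages exceeded T cells at least 2-fold in all 4 libraries for 30 members and were lower for 0, beside 10.9% and 13.8% of all genes. Against neutrophils 21 members were higher and 0 lower, beside 16.1% and 6.34%. Against monocytes 11 were higher and 0 lower, beside 3.2% and 2.12%.

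Other classes led for the rest. Neutrophils were highest in all 4 libraries for Lamp2 (446, 747, 525 and 645 CPM), a membrane protein of lysosomes, for Gla (70.2, 335, 110 and 135 CPM), for the sialidase Neu1 (101, 127, 95.4 and 141 CPM), and for the pump subunit Atp6v1e1 (304, 658, 343 and 345 CPM). In neutrophils Gla was thus more than 4 times as high in Vehicle-OVA as in Vehicle (ratio 4.77, interval 4.51 to 5.05). Plasmacytoid dendritic cells led in all 4 libraries for the aminopeptidase Ctsh (1007, 1227, 919 and 1131 CPM), the growth factor and lysosomal protein precursor Grn (1209, 2270, 1162 and 2491 CPM), and the pump subunits Atp6v1d (205, 231, 214 and 188 CPM) and Atp6v1h (101, 221, 120 and 178 CPM). They also led for Psap, the precursor of the saposins that help to digest sphingolipids, with 3028, 6617 and 2938 CPM, except in Ribavirin-OVA, where macrophages were higher (6965 against 6597 CPM). Conventional dendritic cells led for Ppt1, which removes palmitate from proteins, with 422, 345, 483 and 493 CPM. Plasma cells led narrowly for Gusb (202, 295, 204 and 340 CPM) and more clearly for Glb1 (49.9, 57.7, 52.4 and 63.0 CPM), the lysosomal glucuronidase and galactosidase.

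The leading class differed between libraries for the remaining members. Ctsl, the cysteine protease cathepsin L, was highest in plasmacytoid dendritic cells in Vehicle (1073 against 401 CPM in macrophages) and Ribavirin (842 against 352 CPM). With OVA the macrophages led with 1568 and 1736 CPM, beside 1071 and 1147 CPM in plasmacytoid dendritic cells. Tfeb was highest in neutrophils in Vehicle (43.2 CPM) and in B cells elsewhere (67.5, 61.5 and 63.0 CPM), and macrophages, at 19.2 to 25.1 CPM, ranked 4th to 6th of the 10 classes. Mcoln1, Sgsh, Ctsk and the pump subunits Atp6v0b, Atp6v0c, Atp6v0d1, Atp6v0d2, Atp6v1a, Atp6v1b2 and Atp6v1c1 were led by macrophages in some libraries and by neutrophils or another class in others.

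**Figure D2:**
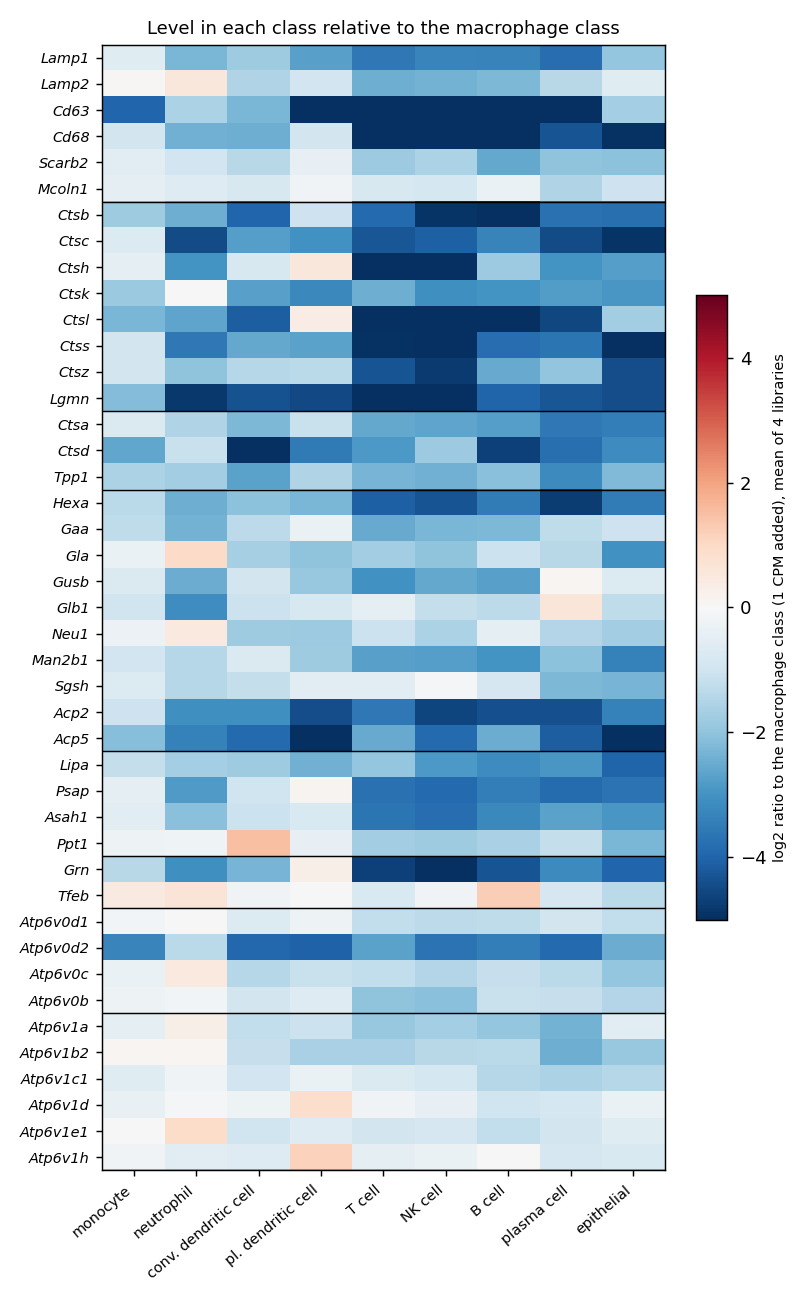
For each member (rows, grouped by role) and each of 9 cell classes (columns), the colour gives the log2 ratio of its CPM to that in the macrophage class, with 1 CPM added, as the mean over the 4 libraries, on a capped scale. Most cells are blue, lower than in macrophages, and the red exceptions include Ppt1 in conventional dendritic cells, Ctsh, Ctsl, Atp6v1d and Atp6v1h in plasmacytoid dendritic cells, Gla and Atp6v1e1 in neutrophils and Tfeb in B cells.

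The main comparison of the design is OVA against no OVA, once under vehicle and once under ribavirin. A member counts as higher or lower where its CPM ratio, with 1 CPM added to both values, is past 1.5-fold, among genes with at least 50 UMIs in the class, a limit that all 43 members passed in macrophages. Under vehicle 20 members were higher, 1 was lower and 22 were neither, beside 24.1% and 12% of 12083 genes. Under ribavirin 25 were higher, 0 lower and 18 neither, beside 23.6% and 9.77%. The 2 pairs share no library, and 19 members were higher in both and 0 lower in both, beside 17.2% and 7.01%. The median log2 ratio of the members was 0.53 under vehicle, where that of all genes was 0.17, and 0.66 under ribavirin, where that of all genes was 0.20. Relative to the median of all genes, 18 members were higher and 2 lower under vehicle, beside 16.4% and 17.5%, with a median of 0.37, and 16 were higher and 0 lower under ribavirin, beside 14.2% and 16.1%, with a median of 0.46. For the 30 members at 100 CPM or more in every library, the counting interval of a level was within 4.82% of its value.

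**Figure D3:**
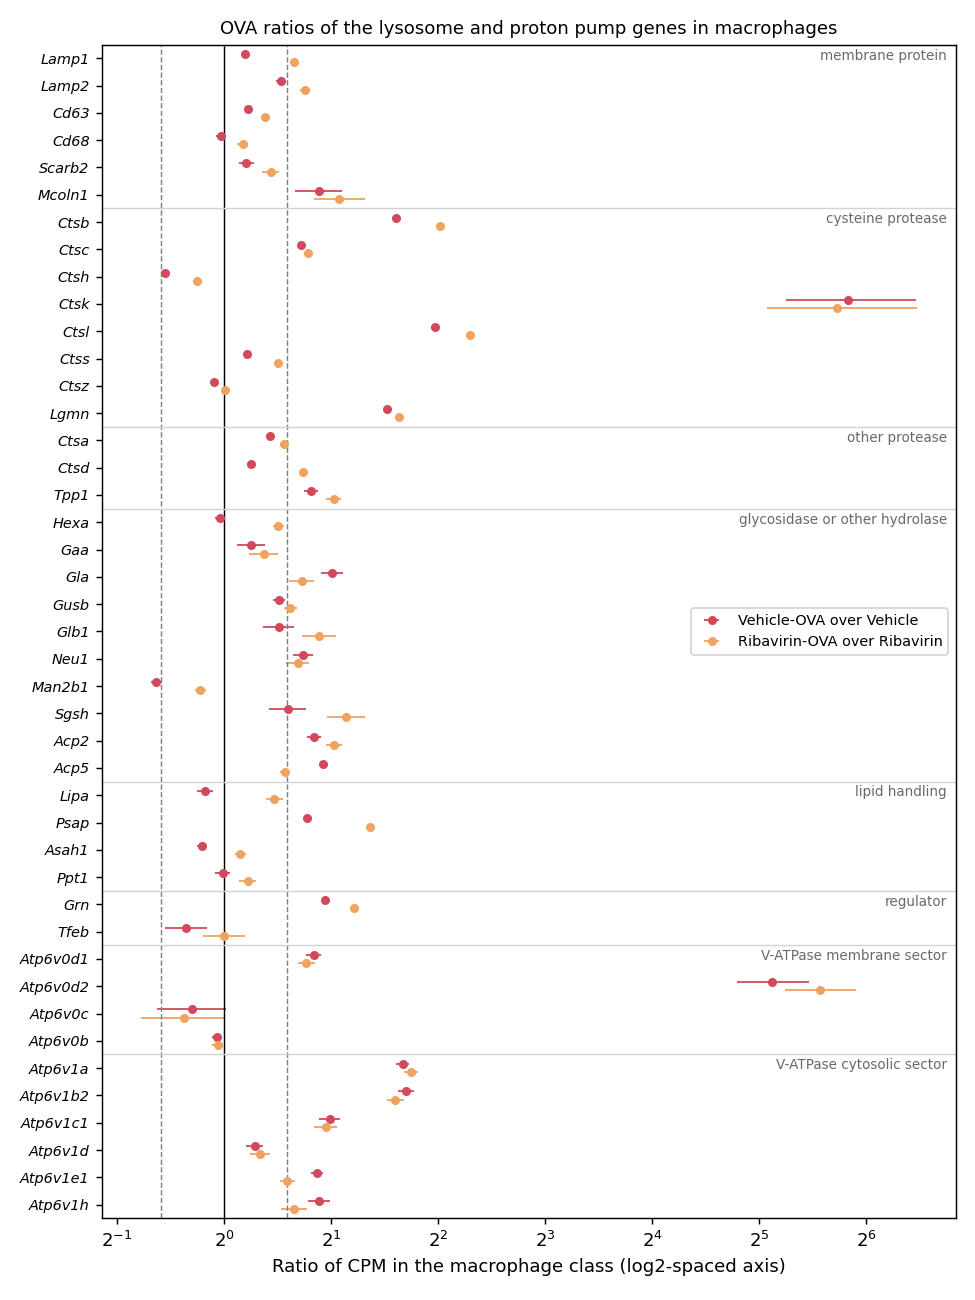
Ratio of CPM with OVA to that without OVA in the macrophage class for the 43 members, grouped by role, on a log2-spaced axis, under vehicle (red) and under ribavirin (orange), with 95% counting intervals and dashed lines at 1.5-fold. Ctsk (56.8 and 53.1) and Atp6v0d2 (34.9 and 47.4) stand far to the right of all other members, Ctsl and Ctsb follow at 3.04 to 4.93, and Ctsh and Man2b1 lie below 1 in both pairs.

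Of the cytosolic sector of the proton pump, 5 of 6 subunits were higher in both pairs. Atp6v1a, the subunit that splits ATP, was at 114, 361, 113 and 378 CPM, which is 3.18-fold (interval 3.05 to 3.32) in the vehicle pair and 3.36-fold (3.20 to 3.52) in the ribavirin pair. Atp6v1b2, its partner in the ring that binds ATP, was at 85.2, 277, 87.7 and 266 CPM, 3.25-fold and 3.03-fold. Both OVA libraries were thus far above both others. Atp6v1c1 (56.2, 111, 57.1 and 110 CPM), Atp6v1e1 (160, 293, 163 and 246 CPM) and Atp6v1h (50.7, 93.6, 50.3 and 79.2 CPM), which link or regulate the sectors, had ratios of 1.51 to 1.98. The exception was Atp6v1d, of the rotating stalk, at 103, 126, 102 and 129 CPM, with ratios of 1.22 and 1.26.

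In the membrane sector the subunits differed more. Atp6v0d2, the form of the d subunit known from osteoclasts and some macrophages, was at 2.70, 94.3, 3.43 and 162 CPM, 34.9-fold (interval 27.8 to 44.3) and 47.4-fold (37.8 to 60.1). Its widely expressed counterpart Atp6v0d1 was at 108, 194, 114 and 194 CPM, with ratios of 1.79 and 1.70. Atp6v0b, of the proton-carrying ring, was at 436, 416, 404 and 387 CPM and stayed within 1.5-fold in both pairs (0.954 and 0.959). Atp6v0c, also of the ring, had only 8.97, 7.27, 7.85 and 6.04 CPM, with ratios of 0.811 and 0.770. It has 2 named pseudogenes in the annotation. Whether these affected its count was not tested, and its level is uncertain.

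Among the cysteine proteases Ctsk, Ctsl, Ctsb, Lgmn and Ctsc were higher in both pairs. Ctsk, the collagen-degrading cathepsin K, was at 0.856, 48.6, 0.824 and 43.8 CPM, 56.8-fold (interval 38.2 to 88.4) and 53.1-fold (33.7 to 88.9). It was under 1 CPM in both libraries without OVA. Ctsl was 3.91-fold (3.83 to 4.00) and 4.93-fold (4.81 to 5.06) higher, from the levels given above. Ctsb, cathepsin B, was at 2090, 6357, 2017 and 8169 CPM, 3.04-fold and 4.05-fold. Lgmn, the asparagine-specific protease that also processes cathepsins, was at 929, 2672, 906 and 2807 CPM, 2.87-fold and 3.10-fold. Ctsc, which activates granule proteases, was at 1288, 2119, 1098 and 1897 CPM, 1.65-fold and 1.73-fold.

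The other 3 cysteine proteases were past 1.5-fold in neither pair. Ctss, which processes the invariant chain of MHC class II, was at 4483, 5190, 4134 and 5850 CPM. Ctsz was at 1478, 1389, 1364 and 1374 CPM. Ctsh was at 870, 595, 780 and 657 CPM, lower with OVA in both pairs at 0.684 times (0.668 to 0.700) and 0.842 times (0.821 to 0.864). Of the other proteases, the tripeptidase Tpp1 was at 144, 253, 137 and 279 CPM, 1.76-fold and 2.03-fold. The aspartic protease Ctsd was at 1842, 2193, 1848 and 3085 CPM, only 1.19-fold under vehicle but 1.67-fold under ribavirin, and Ctsa, which protects Glb1 and Neu1, at 449, 606, 457 and 675 CPM, was 1.35-fold and 1.48-fold.

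The glycosidases and other hydrolases had small ratios in both directions. Under vehicle 4 of 10 were higher and 1 lower, and under ribavirin 6 were higher and 0 lower. Gla, which removes terminal galactose from glycolipids, was at 49.5, 99.4, 53.1 and 87.9 CPM, 2.01-fold and 1.66-fold, and Neu1 at 63.9, 107, 63.4 and 102 CPM, 1.67-fold and 1.61-fold. The acid phosphatase Acp2 was at 133, 238, 123 and 250 CPM, 1.79-fold and 2.04-fold. Acp5, the tartrate-resistant phosphatase, was at 402, 762, 456 and 676 CPM, 1.90-fold and 1.48-fold. Sgsh, which removes sulfate from heparan sulfate, was at 20.3, 30.7, 20.1 and 44.2 CPM, with 1.51-fold in plain CPM under vehicle, which the added 1 CPM keeps below the limit, and 2.20-fold under ribavirin. Gusb (195, 279, 191 and 294 CPM) and Glb1 (29.5, 42.1, 27.2 and 50.4 CPM) were past the limit under ribavirin alone. The difference between the pairs was not tested for these genes.

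The remaining hydrolases did not exceed 1.5-fold. Hexa was at 334, 325, 325 and 462 CPM and Gaa, which degrades glycogen, at 42.3, 50.4, 44.6 and 57.7 CPM. Man2b1, a mannosidase, was the single member past 1.5-fold lower, at 372, 240, 392 and 336 CPM, 0.646 times (0.622 to 0.670) under vehicle and 0.857 times (0.827 to 0.889) under ribavirin. Psap, of the lipid handling genes, was at 2876, 4935, 2699 and 6965 CPM, 1.72-fold and 2.58-fold. The other 3 stayed near their level without OVA: the acid lipase Lipa at 153, 135, 136 and 188 CPM, the ceramidase Asah1 at 361, 314, 328 and 364 CPM, and Ppt1 at 150, 149, 141 and 164 CPM.

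Of the membrane proteins, the calcium channel Mcoln1 was higher in both pairs, at 11.5, 21.3, 11.4 and 24.1 CPM, 1.85-fold (1.59 to 2.16) and 2.11-fold (1.79 to 2.50). The abundant glycoproteins of the lysosomal membrane, Lamp1 (990, 1137, 883 and 1392 CPM) and Lamp2 (319, 462, 308 and 520 CPM), were past 1.5-fold under ribavirin only, at 1.58-fold and 1.69-fold, beside 1.15-fold and 1.45-fold under vehicle. The tetraspanin Cd63 (843, 988, 745 and 973 CPM), the macrophage glycoprotein Cd68 (392, 385, 373 and 420 CPM) and Scarb2 (142, 165, 140 and 189 CPM), a receptor that carries an enzyme to lysosomes, were past it in neither pair. Cd63 has 1 named pseudogene. Of the regulators, Grn was at 936, 1801, 930 and 2162 CPM, 1.92-fold and 2.32-fold, and Tfeb, the transcription factor of lysosomal genes, at 24.6, 19.2, 25.0 and 25.1 CPM, 0.781 times (0.682 to 0.894) and 1.00 times (0.874 to 1.15).

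The share of cells with a UMI separated Ctsk and Atp6v0d2 from an abundant member. With every cell thinned to 1000 UMIs, Ctsk was found in 0.0712%, 4.35%, 0.0606% and 3.96% of macrophages, and before thinning in 0.627%, 19.2%, 0.657% and 19.3%. In T cells, which should lack it, the thinned share was 0.0330%, 0.219%, 0.0380% and 0.141%, at a median depth of 4279, 4930, 4954 and 5445 UMIs. For Atp6v0d2 the thinned share was 0.161%, 7.18%, 0.246% and 11.1% in macrophages and 0.298%, 0.141%, 0.317% and 0.247% in T cells. Without OVA the macrophage share of Atp6v0d2 was therefore no higher than that of T cells, so its ratio is set against a low level. Single cells of Vehicle held up to 14 UMIs of it in macrophages and up to 8 in T cells. Whether these levels are background was not tested. Ctsb was found in 76.9%, 95.2%, 75.3% and 97.6% of thinned macrophages. Shallower cells, 0 to 121 per library among macrophages, were left out.

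Other genes of the lysosome and the pump were followed as a list of 69, of which 63 had enough UMIs in macrophages. Under vehicle 18 were higher and 7 lower, beside 24.1% and 12% of all genes, so the shares were near the background. Under ribavirin 28 were higher and 4 lower, beside 23.6% and 9.77%. The same shares of all genes stand beside the parts of the list that follow. Of the other pump genes 2 of 10 were higher under vehicle and 3 of 10 under ribavirin, with 0 lower. Of the other lysosomal genes 11 of 46 were higher and 6 lower, then 20 higher and 3 lower, and of the regulators and inhibitors 5 of 7 were higher and 1 lower in both pairs. The 2 highest by mean ratio were Tfec, a transcription factor of the Tfeb family, at 28.2, 112, 24.4 and 97.1 CPM, and Igf2r, a receptor that sorts lysosomal enzymes, at 6.23, 26.7, 5.73 and 24.9 CPM. The 2 lowest were Cst3, the cathepsin inhibitor cystatin C, at 4745, 1311, 4154 and 1709 CPM, and Lamtor2, of the complex that anchors mTORC1 to the lysosome, at 159, 91.1, 152 and 86.5 CPM. Cst3 was 0.276 times its Vehicle level in Vehicle-OVA and 0.411 times its Ribavirin level in Ribavirin-OVA.

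The shares of members past 1.5-fold between ribavirin and vehicle in macrophages were low and near those of all genes. Without OVA 0 of 43 were past 1.5-fold in either direction, beside 2.02% higher and 0.646% lower of all genes. With OVA 1 was higher and 0 lower, beside 4.54% and 3.36%. That gene was Atp6v0d2, at 162 CPM in Ribavirin-OVA and 94.3 CPM in Vehicle-OVA, a ratio of 1.72 (1.61 to 1.84). With the 5% of cells with most UMIs left out of each library, 5 members were higher with OVA and 1 without OVA.

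The macrophages were divided into states by further markers. A state marked by Arg1, Ccl24 and Retnla, genes of alternative activation, held 951 cells of Vehicle-OVA (61.1% of the class) and 680 of Ribavirin-OVA (57.2%). It held 7 cells in Vehicle and 27 in Ribavirin. The state marked by P2ry12, Tmem119, Sall1, Siglech and Gpr34 held 1289, 154, 892 and 169 cells, and 1497, 424, 1143 and 329 cells were put in no state. Because the Arg1-Ccl24 state was nearly absent without OVA, its own effect and that of OVA cannot be told apart between libraries, and the states were compared within a library. A state marked by Cxcl13 held 60, 2, 38 and 0 cells. An osteoclast-like panel (Ocstamp, Dcstamp, Calcr, Oscar, Siglec15) picked 18, 25, 30 and 10 cells, too few to be described, and Siglec15 and Oscar were at 0 in them, as was Calcr, so the name is not borne out.

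Within the OVA libraries single members differed between the Arg1-Ccl24 and the P2ry12 state. In Vehicle-OVA 6 members were over 1.5-fold higher and 14 lower, beside 12% and 14.7% of all genes. In Ribavirin-OVA 6 were higher and 4 lower, beside 10.9% and 12.3%. The shares higher were thus near those of all genes in both libraries, and the share lower was above that of all genes in Vehicle-OVA only. Higher in both libraries were Ctsk, Ctsl, Atp6v0d2, Atp6v1b2 and Atp6v1e1, and lower in both were Scarb2, Ctsd, Man2b1 and Ppt1. Ctsk was at 65.9 CPM in the Arg1-Ccl24 state and 6.23 CPM in the P2ry12 state of Vehicle-OVA, 10.6-fold (6.26 to 19.5), and at 64.2 and 3.10 CPM in Ribavirin-OVA, 20.7-fold (10.8 to 45.6). For Atp6v0d2 the levels were 123 and 41.4 CPM, then 207 and 34.8 CPM, and for Ctsl 1890 and 1017 CPM, then 2389 and 726 CPM. Ctsd ran the other way, at 1595 CPM in the Arg1-Ccl24 state and 4719 CPM in the P2ry12 state of Vehicle-OVA and at 2242 and 5169 CPM in Ribavirin-OVA, ratios of 0.338 and 0.434. Man2b1 was at 174 and 467 CPM, then 244 and 515 CPM. Ctsb was within 1.5-fold, at 6378 and 6063 CPM, then 8596 and 6839 CPM. Macrophages put in no state lay between these states for Ctsk, Atp6v0d2, Ctsl, Ctsd and Man2b1. In Vehicle-OVA and Ribavirin-OVA they held Ctsk at 33.8 and 35.3 CPM and Atp6v0d2 at 63.7 and 183 CPM. Their Ctsd was at 2209 and 3215 CPM.

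The OVA ratios were also present within the P2ry12 state, which all 4 libraries held. In it 24 of 42 members were higher and 0 lower under vehicle, beside 25.3% and 8.65% of all genes, and 23 were higher and 0 lower under ribavirin, beside 23.1% and 7.98%. The median log2 ratio was 0.64 and 0.65, beside 0.25 and 0.24 for all genes. Relative to the median of all genes, 14 members were higher and 0 lower, beside 11.7% and 16.4%, and 13 were higher and 0 lower, beside 10.4% and 15.1%. Ctsd was at 2401, 4719, 2462 and 5169 CPM in this state, 1.97-fold and 2.10-fold, where the whole class gave 1.19-fold and 1.67-fold. Scarb2 was at 152, 243, 156 and 254 CPM, 1.60-fold and 1.63-fold, and Hexa at 358, 546, 356 and 580 CPM, 1.53-fold and 1.63-fold, though neither was past 1.5-fold in the class. Man2b1, lower in the class under vehicle, was at 418, 467, 433 and 515 CPM. For these genes the class average lay below the P2ry12 state in all 4 libraries, those without OVA included. With OVA 61.1% and 57.2% of the class were cells of the Arg1-Ccl24 state, and the part of this state in the gap was not tested.

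Ctsb in the P2ry12 state was at 2222, 6063, 2109 and 6839 CPM, and Atp6v1a at 109, 262, 111 and 259 CPM. Atp6v0d2 was at 0.499, 41.4, 0.476 and 34.8 CPM and Ctsk at 0.285, 6.23, 0.191 and 3.10 CPM, the latter with too few UMIs for a call. The P2ry12 state of the OVA libraries held Arg1 at 5.93% and 7.28% of the level in the Arg1-Ccl24 state. Ccl24 was at 0.950% and 2.33% of it, and Retnla at 4.16% and 1.69%. These genes are markers of the Arg1-Ccl24 state, so their low share follows from the sorting and is no yardstick for other genes. Ctsk in the P2ry12 state was at 9.45% and 4.83% of its level in the Arg1-Ccl24 state, Atp6v0d2 at 33.8% and 16.8% and Ctsl at 53.8% and 30.4%. The Cxcl13 state, with 60 cells in Vehicle, differed little from the P2ry12 state, with Ctsc and Acp2 higher and Tfeb and Atp6v0c lower among 41 members, beside 9.15% and 18% of all genes.

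**Figure D4:**
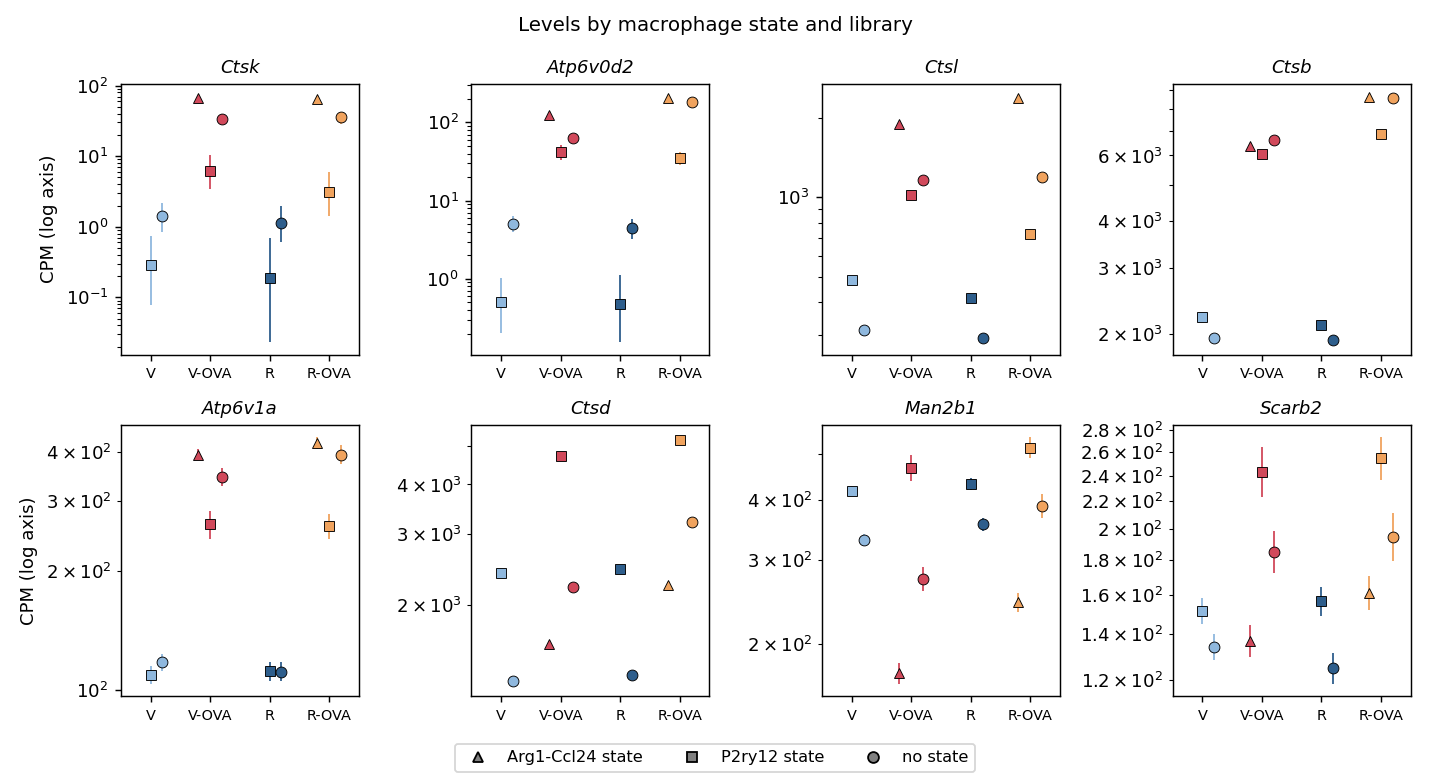
CPM (log axes) of 8 members in the Arg1-Ccl24 state (triangles), the P2ry12 state (squares) and macrophages put in no state (circles) in Vehicle (V), Vehicle-OVA (V-OVA), Ribavirin (R) and Ribavirin-OVA (R-OVA), with 95% counting intervals, where the state had at least 50 cells. Triangles lie above squares for Ctsk, Atp6v0d2, Ctsl, Ctsb and Atp6v1a, and below them for Ctsd (1595 against 4719 CPM in Vehicle-OVA), Man2b1 and Scarb2.

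In monocytes 24 of 42 members were higher and 0 lower under vehicle, beside 27.5% and 9.65% of all genes, and 18 were higher and 0 lower under ribavirin, beside 33% and 7.48%. Relative to the median of all genes, 14 members were higher and 1 lower, beside 12.8% and 17.8%, and 7 were higher and 6 lower, beside 12.3% and 17.3%. Ctsb was at 671, 1725, 757 and 1731 CPM and Lgmn at 211, 628, 242 and 504 CPM, and Ctsh was the lowest by ratio in both pairs, at 0.674 and 0.675. The C1q genes in monocytes reached 5.65%, 9.61%, 4.73% and 4.95% of their macrophage level. In the other classes compared they reached at most 1.49%, and how much of the monocyte rate was free RNA was not tested. If all of it were, free macrophage RNA would amount to 24.9%, 40.9%, 17.7% and 27.6% of the Lgmn level in monocytes. For Ctsb it would be 17.6%, 35.4%, 12.6% and 23.4%. In T cells 17 of 42 were higher and 2 (Ctsh and Atp6v0d2) lower under vehicle, beside 34.5% and 10.5%, and 13 were higher and 0 lower under ribavirin, beside 33.2% and 10.2%, so the shares were near the background. Relative to the median of all genes, 6 members were higher and 3 lower, beside 14.5% and 21.2%, and 4 were higher and 5 lower, beside 12.3% and 19.8%. Lgmn had the largest T cell ratio in both pairs, at 9.56, 34.4, 12.3 and 40.9 CPM. In T cells the C1q genes reached 0.579%, 0.714%, 0.678% and 0.677% of their macrophage level, and free macrophage RNA at that rate would amount to 56.2%, 55.4%, 50.03% and 46.5% of their Lgmn level, beside a median of 2.89% to 4.70% over the members.

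In neutrophils the 2 pairs gave different counts, a difference that was not tested. Under vehicle 15 members were higher and 13 lower, beside 12.1% and 48.8% of all genes, with a median log2 ratio of 0.23 where that of all genes was -0.56. Under ribavirin 19 were higher and 0 lower, beside 25.4% and 8.96%, with a median of 0.53 where that of all genes was 0.25. Relative to the median of all genes, 24 members were higher and 7 lower under vehicle, beside 25.5% and 23.4%, and 14 were higher and 2 lower under ribavirin, beside 12% and 16.4%. Ctsb was at 419, 1441, 375 and 1110 CPM and Psap at 296, 924, 308 and 1214 CPM, higher in both. Of the pump, 5 of 6 cytosolic and 3 of 4 membrane subunits were higher under vehicle, with Atp6v1a at 164, 449, 157 and 354 CPM. Man2b1 and Ctss were lower under vehicle, Ctss at 650, 249, 404 and 430 CPM. The make-up of the class differed between libraries: it held 61.0% of all cells in Vehicle-OVA and 25.8% to 31.5% elsewhere, and Siglecf, a gene looked at after the values had been seen, was at 313, 64.6, 201 and 194 CPM in it. The part of this in the neutrophil values was not tested.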

How the data were processed

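For each of 4 libraries the authors had deposited a matrix of UMI counts per gene and called cell, not normalized (Cell Ranger 5.0.0, as the file headers state). The submitters' processing notes name mm10, while the annotation release is not given in the sources used here. Libraries held 10311 to 28277 cells and 91742940 to 171873110 UMIs.

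From these counts, cells with at least 200 genes, 500 UMIs and under 10% mitochondrial UMIs were kept (25727, 17498, 20278 and 8817). Each class's share of marker UMIs in a cell was divided by its typical share in cells of that class, and a cell joined the class of highest value, given at least 3 UMIs of 2 markers and a value 2 times that of the next class. Cells with markers of 2 classes (8.47% to 14.4%) were set aside, which stood in for a doublet caller. Macrophage states needed 3 UMIs of their markers and the same margin. UMIs were summed per class and library (CPM), with exact Poisson intervals for levels and exact conditional binomial intervals for ratios, and 1 CPM was added for calls at 1.5-fold, among genes with at least 50 UMIs. The work used Python 3.11.15, NumPy 2.4.6 and SciPy 1.17.1 and was tested on simulated data. 3 T cell markers were not listed, and 121 genes that share a symbol were kept apart by identifier. Pseudogenes were counted from an annotation that may not be the authors'.

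Members and lists were chosen with earlier results of these data known. All members are described, in particular the largest and smallest OVA ratio per role, members whose pairs go opposite ways and those with another leading class, and from the pathway list the 2 highest and 2 lowest. Alternatives varied the mitochondrial limit, cell filters, depth, summing, scaling, class rule, gene filter and pseudocount. An alternative without the margin between classes and one without the cells of highest Ctsk count were chosen after seeing the data.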

Additional observations from a re-analysis of the deposited data

Results flagged for a closer look

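In neutrophils 4 members were more than 1.5-fold lower with OVA under vehicle and more than 1.5-fold higher under ribavirin, which brought them here. The sign alone was opposite for 17 of 43 members. Neither count has its share over all genes beside it, so neither is read as a trait of the members. Of all genes in this class 48.8% were lower under vehicle and 25.4% higher under ribavirin. With 1 library per group the difference between the pairs was not tested. Scarb2 was at 98.5, 58.6, 66.6 and 107 CPM (libraries in the order used above), a log2 ratio of -0.7405 under vehicle and 0.6717 under ribavirin. Hexa was at 70.8, 46.2, 58.6 and 92.5 CPM, with -0.6042 and 0.6499, and Sgsh at 12.1, 5.45, 7.77 and 15.9 CPM, with -1.02 and 0.9426. All genes in this class had a median of -0.56 under vehicle and 0.25 under ribavirin.

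Ctsk was at 14.0, 1.76, 8.86 and 16.8 CPM in neutrophils, with log2 ratios of -2.443 and 0.8546. In Vehicle 2 cells, in Ribavirin 1 and in Ribavirin-OVA 1 had at least 20 Ctsk UMIs each, a number set after seeing the values. Without them the levels were 0.862, 1.76, 0.519 and 2.17 CPM, and the log2 ratio under vehicle (1 CPM added) turned to 0.57, higher with OVA.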

How the results depend on the processing

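Over 13 alternatives, 366 counts and medians held and 37 moved, where a count held within 1.5 times and a median within a small fixed log2 difference. Of 598 macrophage ratios past 1.5-fold, 561 stayed past it, 37 did not, and 6 others passed it. Among all 1118 macrophage ratios, small ones included, 923 kept their direction and 195 did not. Of the single-gene ratios followed, 914 stayed within the counting interval, 303 moved and 5 reversed. A change of sign counted as reversed only where the main ratio was past 1.5-fold. The count of members highest in macrophages ranged from 19 to 20. The cause of the moves below was not tested.

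Centring on the median of all genes, whose background shares stand beside the results, gave 2 members lower in macrophages under vehicle, 16 higher under ribavirin, and medians of 0.37 and 0.46. It gave 14 higher and 1 lower (vehicle) and 7 higher and 6 lower (ribavirin) in monocytes, 24 higher and 7 lower (vehicle) and 2 lower (ribavirin) in neutrophils, 6 higher (vehicle) and 4 higher and 5 lower (ribavirin) in T cells, and 14 and 13 higher in the P2ry12 state. A mitochondrial limit of 5% left 7 members lower in the Arg1-Ccl24 than the P2ry12 state of Ribavirin-OVA, and the mean of single-cell CPM left 8. Members lower in macrophages under vehicle numbered 2 with that mean and 2 without the 5% of cells with most UMIs, which also gave 1 and 5 members higher with ribavirin, without and with OVA. A pseudocount of 10 CPM gave 11 higher and 1 lower in T cells under vehicle. Members lower in monocytes numbered 1 to 2, and in T cells 1, under the 5% limit, the single-cell mean, the stricter or looser class rule, the cells of most UMIs left out, or no margin between classes.

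The neutrophil ratio of Ctsk reversed under vehicle to log2 0.25 (single-cell mean), 0.81 (stricter rule), 0.94 (without cells of most UMIs) and 0.57 (without the cells of highest Ctsk count), and under ribavirin to -0.13 (looser rule). With 1 library per group no replicate could be left out. Depth limits the 13 members under 100 CPM in macrophages.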

Other observations

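Outside the macrophage class 7 kept cells held at least 20 Ctsk UMIs, a number set after the values were seen. They carried 20 to 225 UMIs of Ctsk, 23 to 250 of Acp5 and 5 to 137 of Mmp9, which is also on the neutrophil marker list, and 0 to 6 of the macrophage gene C1qa. Of the osteoclast genes Calcr and Siglec15 were at 0 in all 7, Oscar reached 1 UMI and Ocstamp reached 10 UMIs. In the macrophage class 4 cells passed the same number, all with 0 Mmp9 UMIs and with 38 to 117 UMIs of C1qa.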
